A study of Mus musculus with 72 samples.

Results

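The splicing machinery and its regulators in the mouse hippocampus were examined as a set of 84 genes, out of 18820 genes measured by a probe set (a group of short DNA probes that reports 1 transcript) with exactly 1 gene symbol. A gene belonged to the set if its symbol began with Srsf, Sf3a, Sf3b, Prpf, Snrp, Hnrnp, Rbfox, Celf, Ptbp, Nova, Mbnl, Elavl, U2af or Srpk followed by a letter or digit. These symbols were found on 119 probe sets, and each gene was represented by its probe set of highest mean over the 72 arrays. The rule used no comparison between groups. Hnrnpa1, Hnrnpm, Prpf39, Snrpn and Srpk2 matched by name but lay only on probe sets shared with other symbols and were left out, as was 1 pseudogene of Hnrnpa1. Elavl3 matched no probe set.

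The mice were male C57BL/6J animals, 2 months old, housed singly under 12 h of light and 12 h of dark, and all of them were handled on the days before the experiment. Contextual fear conditioning pairs a place with an unpleasant stimulus that the mouse later recalls there, here a single foot shock of 2 s at 1.5 mA at ZT 3 (zeitgeber time, hours after lights on). Trained mice made up FC30 (hippocampus taken 30 min later), FC4 (4 h later), FC12 (12 h later) and FC24 (24 h later). Retrieval mice (RT30) were trained too, spent 5 min in the chamber again at 24 h, and were taken 30 min after this test. Mice that were handled and never trained made up CC30, CC4 and CC12, taken at the clock times of the 30 min, 4 h and 12 h groups. Each of the 8 groups held 9 mice, and no group received the chamber or the shock alone. Both hippocampi of a mouse made 1 sample. The 12 h groups were taken in the dark phase and all other groups in the light phase. Values are log2 signals, from which the first principal component over all arrays (PC1, 17.4% of the variance) was subtracted. In the component scores 6 arrays were marked as apart, 1 each in CC30, FC30, CC4, CC12, FC12 and FC24. The one in FC24 had a PC1 score of 2.83, inside the scores of other groups, where the other FC24 arrays lay from -8.45 to -3.33. Some arrays not marked had larger scores, such as replicate 5 of FC30 at 19.5. Calls of the 84 genes that were lost without the 6 arrays, or without them with PC1 found again, are given with their values beside the result.

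Splicing removes introns from a pre-mRNA and joins its exons. The spliceosome that does so is built from small nuclear RNAs and their protein partners, among them the Snrp proteins and the Sf3a, Sf3b and Prpf factors, and U2af proteins help to mark the end of an intron. SR proteins (Srsf) mostly favour the use of exons they bind, Hnrnp proteins often oppose it, and Srpk kinases phosphorylate SR proteins. Rbfox, Nova, Celf, Ptbp, Mbnl and Elavl proteins help to set which alternative exons a neuron includes, and several of them also act on the stability or translation of mRNAs. A whole-transcript array reports the level of each regulator's RNA, not which exons its targets contain.

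Nearly the whole set was detected. Of the 84 genes, 81 lay above the median probe set of the array and 66 above its upper quartile. Snrpf, an Sm protein of the spliceosome (mean log2 value 3.19), and Mbnl3 (3.85) lay below its lower quartile. Srpk3, known as a kinase of muscle, was also dim at 4.89. Values of different probe sets depend on their probes, so no order of level between genes was read from them. All 11 neuron markers lay above the median probe set, and so did all 10 astrocyte, all 10 oligodendrocyte, all 9 endothelial and all 9 pyramidal cell markers. So did 9 of 10 dentate granule, 9 of 10 microglia and 4 of 9 choroid plexus markers. The tissue was taken whole, so that fewer cells of a type and less RNA per cell cannot be told apart.

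The group means of most splicing genes lay close together across the 8 groups. The difference between the highest and the lowest of a gene's 8 group means had a median of 0.0762 on the log2 scale. It was under 0.1 for 63 genes and over 0.2 for 3, Srsf5, Srsf10 and Nova1, with the largest at 0.252 for Srsf5. The same difference is not given for other probe sets, so small values are not shown to be particular to splicing genes. The SD between mice of a group had a median of 0.0724 over the set, against 0.0718 for all probe sets above the upper quartile. Prpf8, a core protein of the spliceosome, had the lowest SD of the set at 0.0273, and Hnrnph3 had the highest at 0.156. The group means of Celf2, an RNA-binding protein abundant in brain, stayed between 11.43 and 11.45.

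The splicing genes that passed the test did so in comparisons between clock times, and no gene of the set passed it in those of training or retrieval. A gene was called where limma gave an adjusted p below 0.1, with the Benjamini-Hochberg adjustment made over the 35556 probe sets of the array. By this measure 10 of the 84 genes were called in at least 1 of 5 comparisons between clock times. Among them, Srsf2, Srsf4 and Elavl4 were called only in trained mice, where clock time and time since training change together. The other 74 genes were called in none of the 12 comparisons.

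**Figure D1:**
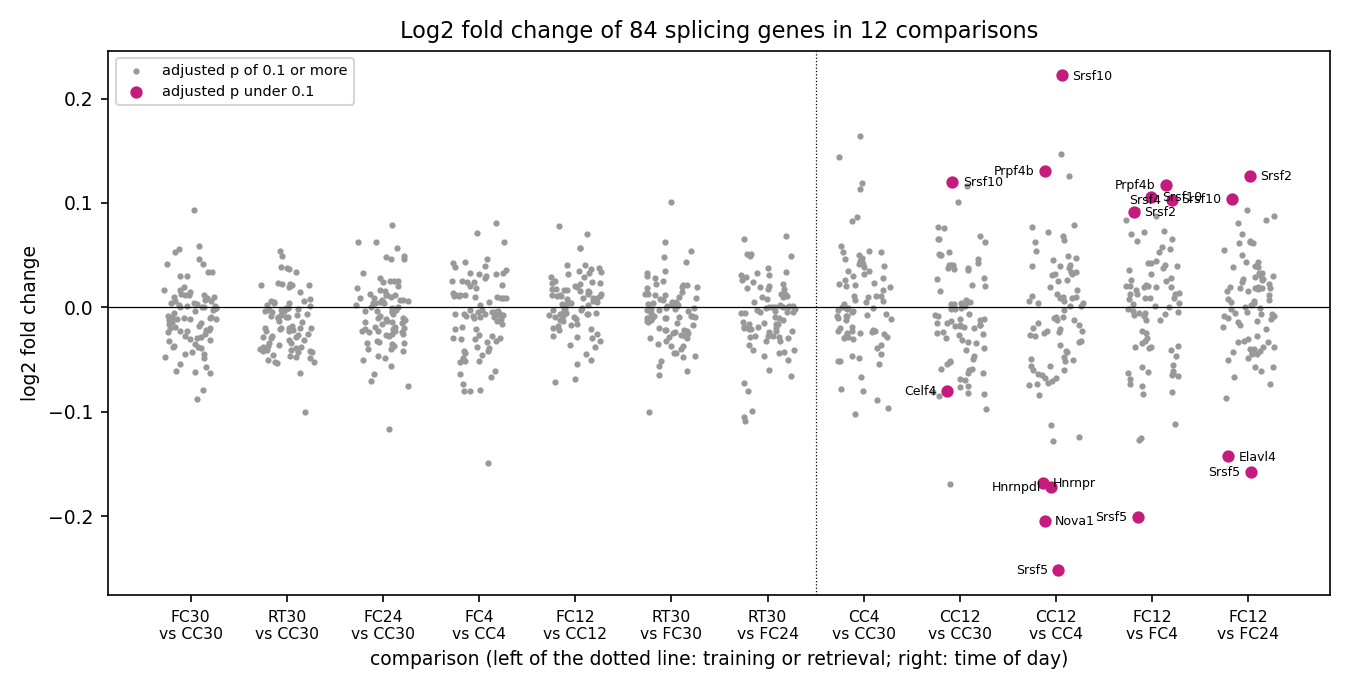
Log2 fold change (y axis) of the 84 splicing genes in the 12 comparisons (x axis), 1 point a gene, with genes at an adjusted p under 0.1 in colour and named. No coloured point stands left of the dotted line, where trained or retrieval mice are compared, and the coloured points right of it reach from -0.25 for Srsf5 to 0.22 for Srsf10, both in CC12 against CC4.

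Between the untrained mice at 4 h and at 12 h, 6 of the 84 genes were called (7.14%), where 5.01% of all probe sets were. Of these, Srsf10 and Prpf4b rose toward 12 h, and Srsf5, Nova1, Hnrnpdl and Hnrnpr fell. In the trained mice of the same clock times (FC12 against FC4), 5 were called (5.95%), where 4.22% of all probe sets were. Here Srsf10, Prpf4b, Srsf2 and Srsf4 rose and Srsf5 fell. CC12 against CC30 called 2 genes (2.38%, against 3.5% of all probe sets), and FC12 against FC24 called 4 (4.76%, against 3.19%). CC4 against CC30, both taken in the light phase, called 0 (against 0.0731% of all probe sets), with 9 genes at an unadjusted p under 0.05 (10.7%, against 6.21% of all probe sets). In the 4 comparisons with a 12 h group the shares called lay from 2.38% to 7.14% where those of the array lay from 3.19% to 5.01%, so the counts by themselves are no result about splicing genes. The counts in trained mice depended on the settings. FC12 against FC4 called 1 gene, Srsf5, with the replicate number as a block and 1, also Srsf5, without the arrays apart and with PC1 found again, and it called 0 with local false discovery rates. FC12 against FC24 called 1, 0 and 0 under the same settings. In FC12 against FC4 and FC12 against FC24 the clock time and the time since training change together and cannot be told apart.

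Among the SR proteins, Srsf5 and Srsf10 moved in opposite directions. Srsf5 had log2 values from 8.83 to 9.05 (median 8.97) in CC4 and from 8.53 to 8.84 (median 8.67) in CC12. Of the 9 mice of CC12, 8 lay below every mouse of CC4. The difference was -0.25 with a standard error of 0.04 (limma, adjusted p = 0.00123), so that the signal fell by 16%. In trained mice the values lay from 8.79 to 9.00 (median 8.94) in FC4 and from 8.61 to 8.87 (median 8.71) in FC12, and 7 of the 9 mice of FC12 lay below all of FC4. That difference was -0.20 with a standard error of 0.04 (limma, adjusted p = 0.00989). The groups taken in the morning had medians of 8.92 in CC30, 8.84 in FC30, 8.85 in FC24 and 8.86 in RT30, all above those of the 12 h groups. Without the arrays apart and with PC1 found again, it was -0.20 (adjusted p = 0.0150). FC12 differed from FC24 by -0.16 with a standard error of 0.04 (limma, adjusted p = 0.0553), a call that was lost in that setting (-0.16, adjusted p = 0.158). CC12 differed from CC30 by -0.17 and did not pass (limma, adjusted p = 0.137), and the CC30 mice spread from 8.63 to 9.00. A further probe set of Srsf5 (mean 8.83) gave -0.22 in CC12 against CC4 and -0.17 in FC12 against FC4 (limma, adjusted p = 0.00285 and 0.0152). The annotation gives both probe sets this symbol and no position, and whether the brighter one, whose values are given above, lies at the Srsf5 gene or at a copy of its sequence elsewhere was not tested.

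Srsf10 encodes an SR-like protein known to repress splicing in its dephosphorylated form. Its values ran from 9.58 to 9.80 (median 9.67) in CC4 and from 9.81 to 10.01 (median 9.94) in CC12. All 9 mice of CC12 lay above all 9 of CC4. The log2 fold change was 0.22 with a standard error of 0.04 (limma, adjusted p = 0.00148), a rise of 16.6%. CC4 differed from CC30 by -0.10, which did not pass (limma, adjusted p = 0.632). In trained mice the values ran from 9.67 to 9.90 (median 9.77) in FC4 and from 9.81 to 9.95 (median 9.90) in FC12, and 4 of the 9 mice of FC12 lay above all of FC4. The log2 fold change there was 0.11 with a standard error of 0.03 (limma, adjusted p = 0.0894). Whether the change from 4 h to 12 h differed between untrained and trained mice was tested as an interaction, and the difference of 0.12 with a standard error of 0.05 for Srsf10 did not pass (limma, adjusted p = 0.999). Srsf10 was also higher in CC12 than in CC30 (log2 fold change 0.12, SE 0.03, limma, adjusted p = 0.0459) and in FC12 than in FC24 (0.10, SE 0.03, adjusted p = 0.0607). Without the arrays that stood apart, the call against CC30 was lost (0.11, limma, adjusted p = 0.121). With PC1 found again as well, the calls in trained mice were lost too, at 0.11 against FC4 and 0.10 against FC24 (adjusted p = 0.107 and 0.137). A dimmer probe set of Srsf10 (mean 5.66) gave 0.11 in CC12 against CC4 and was not called (limma, adjusted p = 0.484). It gave 0.11 in FC12 against FC4, 0.12 in FC12 against FC24 and 0.03 in CC12 against CC30, and none passed (limma, adjusted p = 0.289, 0.279 and 0.898). As with Srsf5, the annotation gives no position. Whether the brighter probe set, whose calls are given above, lies at the Srsf10 gene or at a copy of its sequence elsewhere was not tested.

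Srsf2, an SR protein that marks nuclear speckles, had values from 10.22 to 10.30 (median 10.27) in FC4, from 10.28 to 10.44 (median 10.36) in FC12 and from 10.14 to 10.29 (median 10.26) in FC24. In FC12, 7 of the 9 mice lay above all of FC4 and 8 above all of FC24. The log2 fold change was 0.09 against FC4 and 0.13 against FC24 (SE 0.02 and 0.03, limma, adjusted p = 0.058 and 0.0189). Both calls were lost without the arrays apart and with PC1 found again (0.08 and 0.11, adjusted p = 0.139 and 0.123). In untrained mice it was 0.13 for CC12 against CC4 and did not pass (limma, adjusted p = 0.136). Srsf4, a larger SR protein, had values from 8.71 to 8.87 (median 8.77) in FC4 and from 8.81 to 8.97 (median 8.90) in FC12. Of the mice of FC12, 5 lay above all of FC4 (log2 fold change 0.10, SE 0.03, limma, adjusted p = 0.0698). This call was lost without the arrays apart (0.10, adjusted p = 0.108, and 0.07, adjusted p = 0.129, with PC1 found again). In CC12 against CC4 the log2 fold change of Srsf4 was 0.08 and did not pass (limma, adjusted p = 0.29). The other SR genes, Srsf1, Srsf3, Srsf6, Srsf9, Srsf11 and Srsf12, were called in none of the 12 comparisons.

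**Figure D2:**
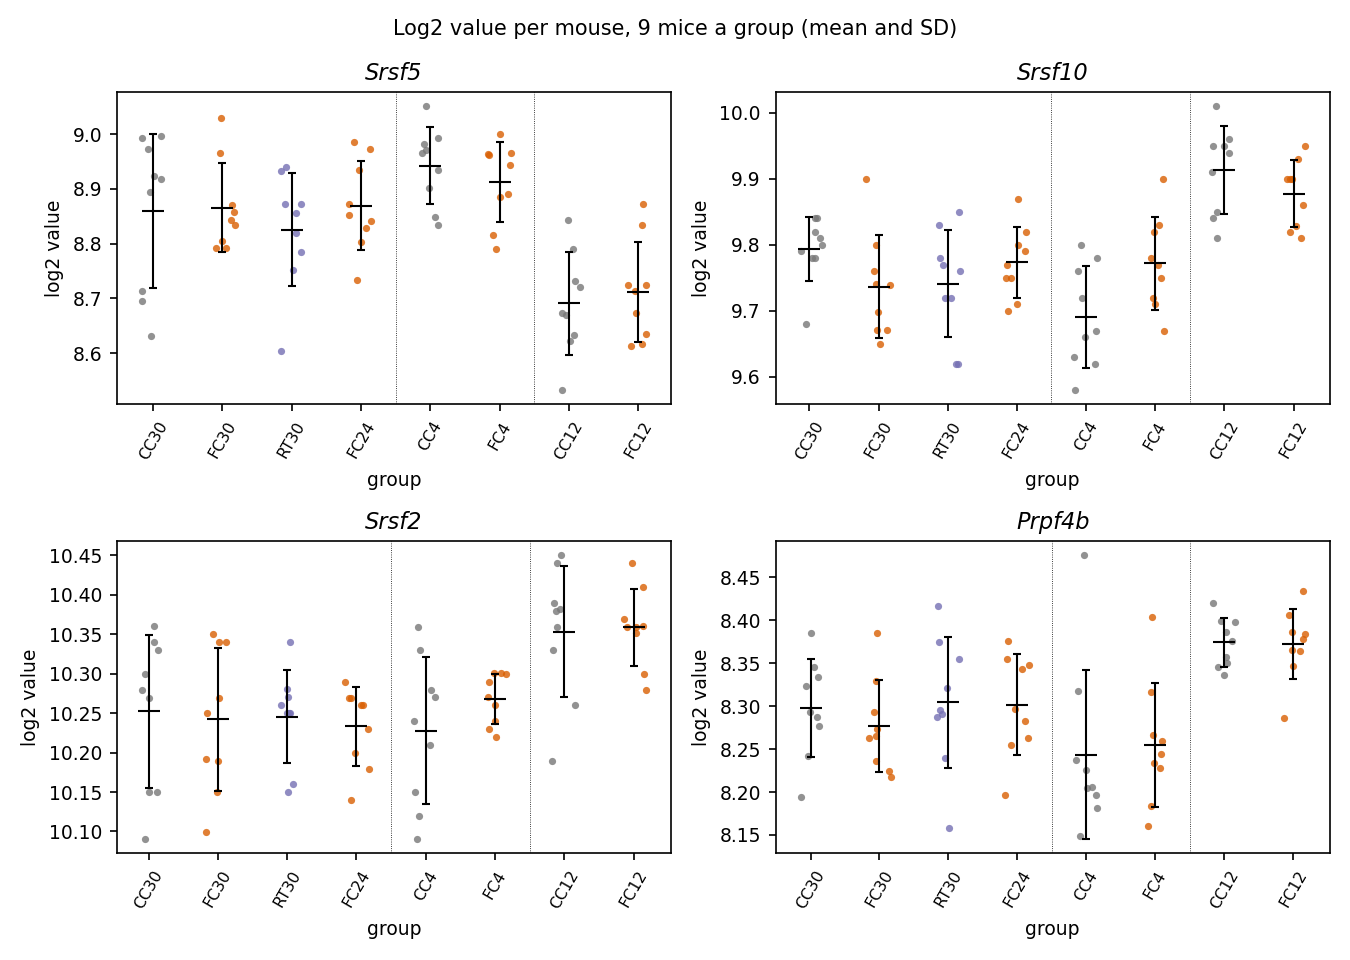
Log2 value of Srsf5, Srsf10, Srsf2 and Prpf4b (y axes) in each mouse of the 8 groups (x axis, untrained in grey, trained in orange, retrieval in violet), with the mean and SD of 9 mice and dotted lines between the clock times. Srsf5 lies lowest in the 12 h groups at the right, with medians of 8.67 and 8.71, and Srsf10 highest, with medians of 9.94 and 9.90.

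Prpf4b, a kinase that associates with the spliceosome, was the only Prpf gene called in the 12 comparisons. Its values lay from 8.15 to 8.48 (median 8.21) in CC4 and from 8.34 to 8.42 (median 8.38) in CC12. The groups overlapped through the top of CC4. The log2 fold change was 0.13 with a standard error of 0.04 (limma, adjusted p = 0.0583), and 0.16 without the arrays that stood apart (adjusted p = 0.00267). In trained mice the values lay from 8.16 to 8.40 (median 8.24) in FC4 and from 8.29 to 8.43 (median 8.38) in FC12, with a log2 fold change of 0.12 and a standard error of 0.03 (limma, adjusted p = 0.0488), which was lost without the arrays apart and with PC1 found again (0.10, adjusted p = 0.127). Prpf8 missed the threshold in FC12 against FC4, although all 9 mice of FC12 lay below all 9 of FC4, with a log2 fold change of -0.06 and a standard error of 0.02 (limma, adjusted p = 0.106).

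Among the rest of the spliceosome's own parts the range of group means reached 0.173 in Prpf3, 0.153 in Prpf38b and 0.145 in Prpf31. None of the 3 Sf3a, 6 Sf3b, 11 Snrp and 3 U2af genes was called in any of the 12 comparisons. The group means of Sf3b3, a scaffold of the complex that holds the branch point, differed least of the 84 genes, from 9.36 to 9.39. Those of Sf3b1, the subunit that contacts the branch point and is often mutated in blood cancers, lay between 10.27 in FC30 and 10.36 in FC4, with an SD between mice of 0.0640. Among the Sm proteins, Snrpb lay between 8.34 and 8.38, Snrpd3 between 10.18 and 10.24, and Snrpe between 7.71 and 7.79. The widest spread among the Snrp genes was that of Snrpa1, a protein of the U2 particle, from 6.90 in FC30 to 7.04 in FC4, where the SD between mice was 0.107. U2af2, which binds the pyrimidine tract, lay between 8.80 and 8.89, and U2af1, which reads the end of the intron, between 7.29 and 7.37. Of the Prpf genes, Prpf3, a partner of the U4 and U6 RNAs, spread most, from 7.20 in RT30 to 7.37 in FC12, and was not called in any comparison, while Prpf6 spread from 8.16 to 8.20. In CC12 against CC4, Prpf31 differed by -0.13 and Prpf3 by 0.15, and neither passed (limma, adjusted p = 0.117 and 0.168).

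Srsf5, Srsf10 and Prpf4b were the genes called in both untrained and trained mice, 3 of the 6 called in CC12 against CC4 and 3 of the 5 called in FC12 against FC4. With the replicate block, or without the arrays apart and with PC1 found again, FC12 against FC4 kept the call of Srsf5 alone, and with local false discovery rates none. The 2 comparisons share no array, while the PC1 subtraction and the hybridisation were common to them. Each of the 6 and each of the 5 had the same sign in the other comparison. Over the 84 genes the log2 fold changes of both comparisons had a Pearson r of 0.784 and a Spearman rho of 0.773, given as a description across genes, which are not independent replicates. Between CC12 against CC30 and FC12 against FC24, which share no array either, r was 0.597 and rho 0.527, and Srsf10 was called in both. The interaction between training and the change from 4 h to 12 h called 0 of the 84 genes and 0% of all probe sets (limma, 2 of the 84 at an unadjusted p under 0.05). The training effect at 30 min did not differ by this test from that at 4 h or at 12 h in any of the 84 genes, where 0.045% and 0.0872% of all probe sets did (3 and 0 of the 84 at an unadjusted p under 0.05).

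**Figure D3:**
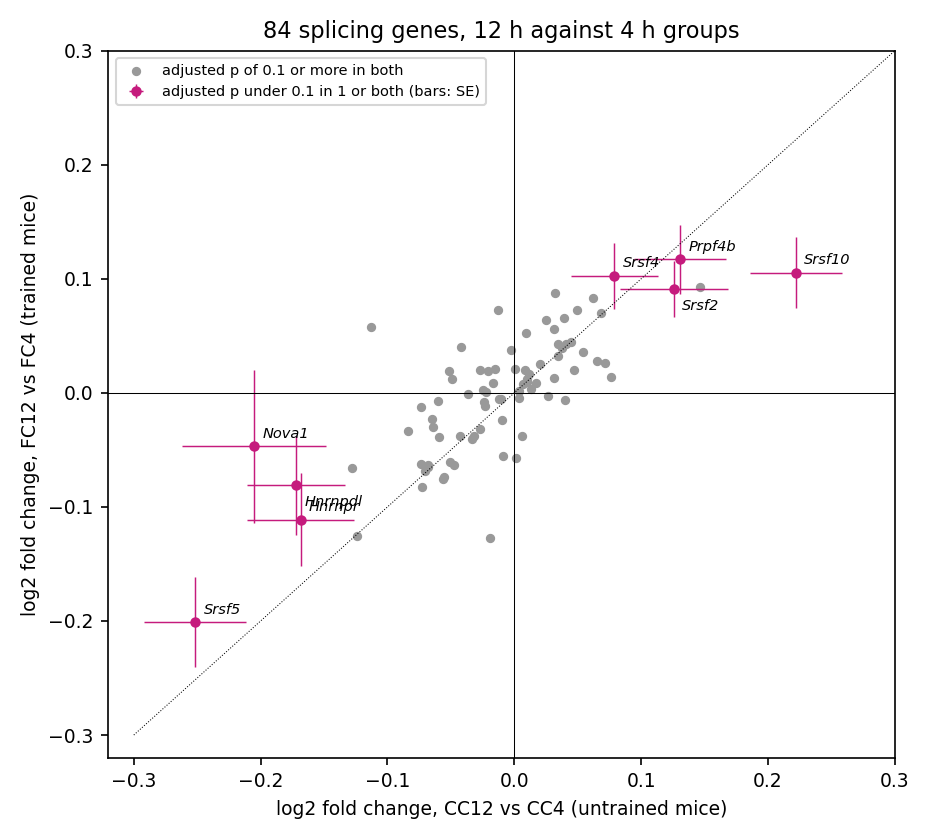
Log2 fold change of the 84 genes from 4 h to 12 h in untrained mice (x axis) and in trained mice (y axis), with genes called in at least 1 of these comparisons in colour with standard errors, and a dotted line of equal change. Srsf5 stands lowest on both axes at -0.25 and -0.20, and Srsf10 lies to the right of the line at 0.22 and 0.11.

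The promoters of Srsf5, Srsf10 and Prpf4b are shown, as the genes called in both kinds of mice from 4 h to 12 h. Each is the 250 bases before the transcription start on the plus strand in RefSeq (GRCm38.p6), at chr12:80945249-80945498 for Srsf5, chr4:135855821-135856070 for Srsf10 and chr13:34875279-34875528 for Prpf4b. Capitals mark the GC box GGGCGG, which Sp-family factors bind, and TGACG, a part of the cAMP response element that CREB-family factors bind, on either strand.
Srsf5: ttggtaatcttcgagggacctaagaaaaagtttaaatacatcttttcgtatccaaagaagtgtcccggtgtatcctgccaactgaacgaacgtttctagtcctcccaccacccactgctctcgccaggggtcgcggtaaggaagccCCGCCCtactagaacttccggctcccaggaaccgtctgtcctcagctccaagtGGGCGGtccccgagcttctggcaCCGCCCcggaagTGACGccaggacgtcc
Srsf10: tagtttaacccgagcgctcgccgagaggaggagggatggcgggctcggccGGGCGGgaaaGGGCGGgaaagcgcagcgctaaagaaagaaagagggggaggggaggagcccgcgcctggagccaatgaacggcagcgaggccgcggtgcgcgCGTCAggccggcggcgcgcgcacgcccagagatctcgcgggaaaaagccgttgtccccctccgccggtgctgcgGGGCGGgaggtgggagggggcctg
Prpf4b: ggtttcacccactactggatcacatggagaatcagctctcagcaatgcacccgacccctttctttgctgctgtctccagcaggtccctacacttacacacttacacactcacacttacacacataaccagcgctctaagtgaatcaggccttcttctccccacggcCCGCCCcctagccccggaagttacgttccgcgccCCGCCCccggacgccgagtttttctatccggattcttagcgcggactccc
Srsf5 and Srsf10 each held 3 GC boxes and 1 TGACG, and Prpf4b held 2 GC boxes and 0 TGACG. Promoters were matched by gene symbol, and whether the called probe sets of Srsf5 and Srsf10 lie at the genes printed was not tested. Promoter windows were found for 73 of the 84 genes (116 windows, since some genes have several starts). The GC box was in 57.8% of these windows and in 32.7% of all 32851 windows of the same length. TGACG was in 31.0% of the splicing genes' windows and in 17.8% of all, and the whole element TGACGTCA in 5.17% and 1.55%. The E-box CACGTG, which clock factors bind, was in 7.76% of the splicing genes' windows and in 6.02% of all, and in 0 of the 3 windows printed. The split heat shock repeat GAANNTTC was in 10.3% and 6.69%. TGACG also lies inside TGACGTCA, and the base composition of the windows was not matched, so the shares are descriptions and a match is not a bound site.

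Of the 18 Hnrnp genes, Hnrnpdl and Hnrnpr were called, both in CC12 against CC4. Hnrnpdl, a member related to Hnrnpd, had values from 9.60 to 9.83 (median 9.73) in CC4 and from 9.44 to 9.68 (median 9.54) in CC12, and 5 of the 9 mice of CC12 lay below all of CC4. Its log2 fold change was -0.17 with a standard error of 0.04 (limma, adjusted p = 0.0158), and -0.08 in FC12 against FC4 (adjusted p = 0.384). Hnrnpr, an RNA-binding protein also found in axons, had values from 7.61 to 7.93 (median 7.79) in CC4 and from 7.55 to 7.69 (median 7.62) in CC12, and 4 of the 9 mice of CC12 lay below all of CC4. Its log2 fold change was -0.17 with a standard error of 0.04 (limma, adjusted p = 0.0325), and -0.11 in FC12 against FC4 (adjusted p = 0.177). The call was lost without the arrays apart and with PC1 found again (-0.13, adjusted p = 0.134). The mean of CC4 was also above that of CC30, by 0.12 for Hnrnpdl and 0.14 for Hnrnpr, which did not pass (limma, adjusted p = 0.632 for both). CC12 differed from CC30 by -0.05 in Hnrnpdl and -0.02 in Hnrnpr. The other Hnrnp genes were called in none of the 12 comparisons, among them Hnrnpk, whose group means lay between 11.27 and 11.32.

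Among the neuronal regulators, Nova1, Elavl4 and Celf4 were each called in 1 comparison between clock times. Nova1, a neuron-specific protein that binds YCAY clusters around alternative exons, had values from 9.66 to 9.94 (median 9.80) in CC4 and from 9.41 to 9.77 (median 9.54) in CC12. Of the 9 mice of CC12, 6 lay below all of CC4 (log2 fold change -0.20, SE 0.06, limma, adjusted p = 0.0559). CC4 also differed from CC30, by 0.16, which did not pass (limma, adjusted p = 0.626). The group mean was 9.62 in CC30 and 9.58 in CC12. In trained mice the values lay from 9.50 to 9.87 (median 9.68) in FC4 and from 9.33 to 9.82 (median 9.61) in FC12, which overlapped almost fully (log2 fold change -0.05, limma, adjusted p = 0.789). The difference between these changes, -0.16 with a standard error of 0.09, did not pass (limma, adjusted p = 0.999). A dimmer probe set of Nova1 (mean 8.65) gave -0.07 in CC12 against CC4 and was not called (limma, adjusted p = 0.383). Nova2, its close relative, gave -0.04 in CC12 against CC4 and 0.00 in FC12 against FC4.

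Elavl4 (HuD), which stabilises neuronal mRNAs, had values from 8.04 to 8.34 (median 8.29) in FC12 and from 8.28 to 8.50 (median 8.38) in FC24. Of the 9 mice of FC12, 3 lay below all of FC24 (log2 fold change -0.14, SE 0.04, limma, adjusted p = 0.0797). This call was lost without the arrays apart and with PC1 found again (-0.14, adjusted p = 0.173). The corresponding difference in untrained mice, CC12 against CC30, was -0.01 (adjusted p = 0.968). Among trained mice the mean of FC30, also taken in the morning, was 8.25. That of FC12 was 8.25 as well, and that of FC24 was 8.39. Celf4, a neuronal RNA-binding protein, had values from 10.47 to 10.55 (median 10.54) in CC30 and from 10.40 to 10.50 (median 10.46) in CC12. Of the 9 mice of CC12, 6 lay below all of CC30 (log2 fold change -0.08, SE 0.02, limma, adjusted p = 0.0731). This call was lost without the arrays that stood apart (-0.08, adjusted p = 0.138). FC12 against FC24 gave -0.06 for Celf4 and did not pass (limma, adjusted p = 0.177). The 3 Rbfox, 3 Ptbp and 3 Mbnl genes and Srpk1 and Srpk3 were called in no comparison. Rbfox1 gave -0.05 in CC12 against CC4 and 0.02 in FC12 against FC4, Rbfox2 gave 0.07 and 0.03, and Rbfox3, the neuronal nuclear antigen NeuN, gave -0.01 and 0.00.

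The question of the training and retrieval comparisons is whether learning or recalling the context changes the level of the splicing regulators. At 30 min after training (FC30 against CC30), 0 of the 84 genes were called, where 0.256% of all probe sets were, and at 30 min after retrieval (RT30 against CC30), 0 were called, where 0.278% were. At these rates less than 1 gene of 84 would be called, so a count of 0 does not set the splicing genes apart from the array. FC4 against CC4, FC12 against CC12, FC24 against CC30 and RT30 against FC30 called 0 of the 84 genes and 0% of all probe sets, and RT30 against FC24 called 0 of the 84 (0.152% of all). By limma at an unadjusted p under 0.05 FC30 and RT30 had 2 genes each, FC24 had 1, FC4 had 4 and FC12 had 0 against their controls, while RT30 had 1 against FC30 and 2 against FC24. In FC30 and RT30 against CC30 that is 2.38% of the set, against 6.76% and 6.91% of all probe sets. All 14 other settings of the analysis also called 0 in these 7 comparisons. Among them were local false discovery rates and the equal variance test of the study's methods. The PC1 removed here held less of the variance than the study's, so these settings may not repeat its analysis. The study itself reported Rbfox1, Prpf38b and Srpk2 among the genes lower after retrieval on these arrays, with an enrichment of RNA processing. Srpk2 was left out of the set here and so could not be called. The study also found lower Rbfox1 by quantitative PCR in a separate cohort of mice. The reason for the difference from the calls here was not tested. The 10 activity-regulated genes used as a control, with Fos, Arc and Egr2 among them, rose in both FC30 and RT30 on the same arrays, by a median of 0.70 and 0.64 on the log2 scale.

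The intervals bound the changes that could have been missed. The 95% confidence intervals of the log2 fold change lay within ±0.2 for all 84 genes in FC30 against CC30 and in RT30 against CC30, and within ±0.1 for 44 and 38 of them. The widest bound was 0.194 in both, for Hnrnph3. The same held within ±0.2 for 81 genes in FC4 against CC4, 83 in FC12 against CC12, 83 in FC24 against CC30, 83 in RT30 against FC30 and 82 in RT30 against FC24. The median standard error of the set was 0.0354 in FC30 against CC30, where that of all probe sets was 0.0498.

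Most of the small differences after retrieval were downward. In RT30 against CC30, 62 of the 84 genes had a log2 fold change below 0, with a median of -0.016, against a median of -0.002 over all probe sets, of which 48.2% were above 0. The gene furthest down was Prpf38b at -0.10, and the gene furthest up was Elavl2 at 0.05. By family, 10 of 11 Snrp genes, 9 of 10 Srsf, 6 of 6 Celf, 3 of 3 Rbfox, 3 of 3 U2af, 3 of 3 Sf3a and 3 of 3 Mbnl were below 0, as were 2 of 2 Nova, 5 of 6 Sf3b, 7 of 11 Prpf, 8 of 18 Hnrnp, 1 of 2 Srpk, 1 of 3 Ptbp and 1 of 3 Elavl. The same CC30 mice served for FC30, where 50 of the 84 were below 0 (median -0.010), and for FC24, where 48 were (median -0.006). Against the trained mice that were not tested (RT30 against FC24), 48 were below 0 with a median of -0.004. Genes of 1 sample vary together, so these counts carry no test.

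Rbfox1, which binds UGCAUG beside neuronal exons, was among the genes lower after retrieval at an unadjusted p. Its values lay from 11.38 to 11.48 (median 11.41) in CC30, from 11.35 to 11.47 (median 11.43) in FC30, from 11.32 to 11.43 (median 11.38) in FC24 and from 11.32 to 11.40 (median 11.36) in RT30. Of the 9 mice of RT30, 5 lay below all of CC30. RT30 differed from CC30 by -0.05 (95% confidence interval -0.10 to -0.01, limma, adjusted p = 0.651), and over the 14 other settings the adjusted p lay between 0.352 and 0.774. FC24 differed from the same CC30 mice by -0.05 as well (95% confidence interval -0.10 to 0.00), and RT30 from FC24 by 0.00 (95% confidence interval -0.05 to 0.05). FC30 differed from CC30 by -0.01 (95% confidence interval -0.06 to 0.04). The lowest group mean of Rbfox1 was that of CC12 at 11.36, an untrained group. Rbfox2 and Rbfox3 differed by -0.02 and -0.03 in RT30 against CC30 (95% confidence intervals -0.08 to 0.04 and -0.09 to 0.02) and by 0.00 in RT30 against FC24.

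**Figure D4:**
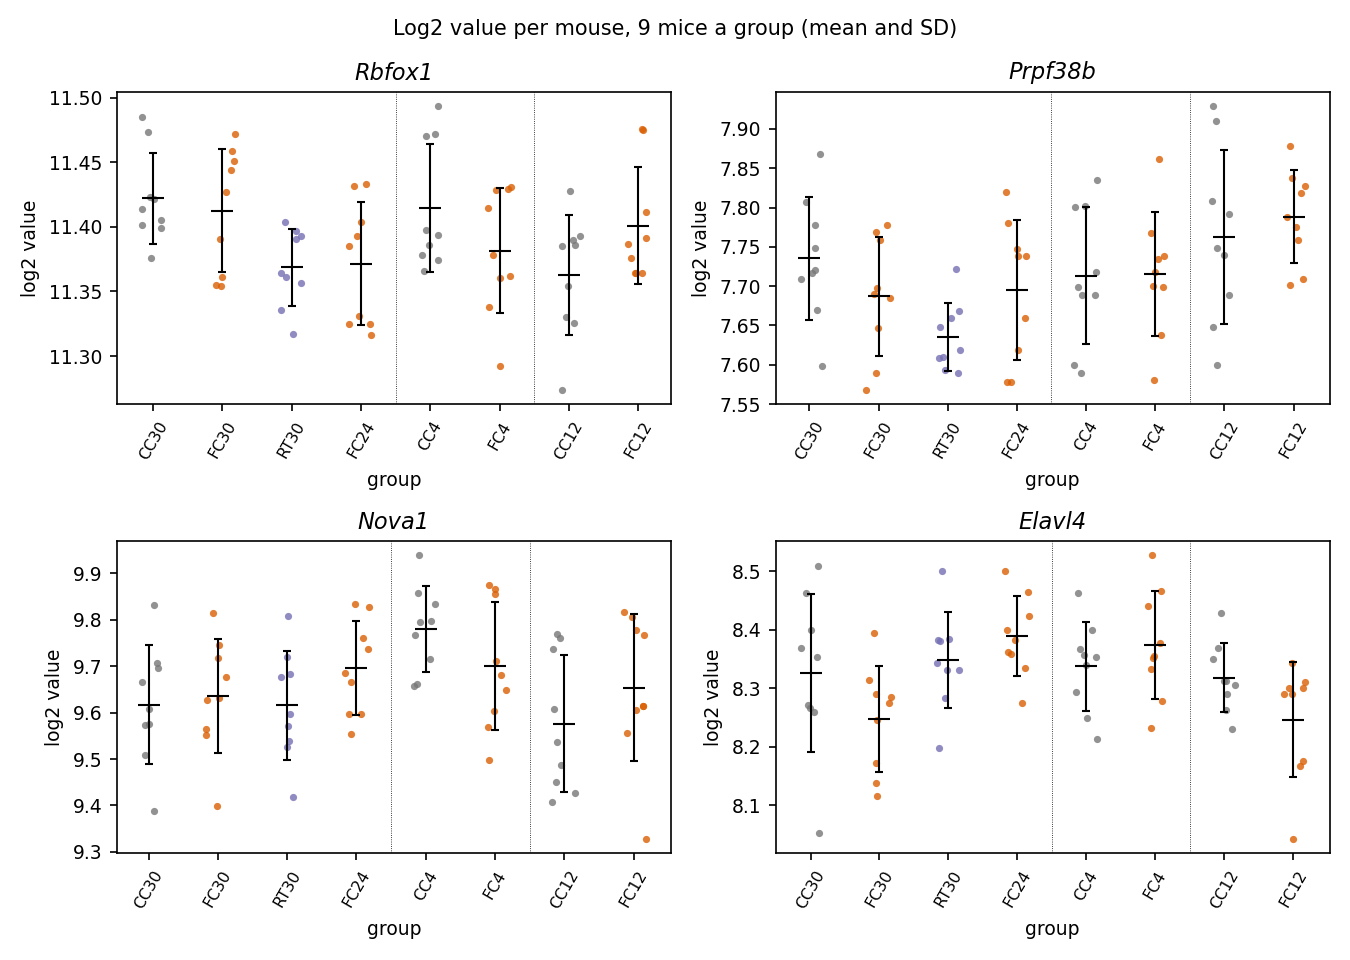
Log2 value of Rbfox1, Prpf38b, Nova1 and Elavl4 (y axes) in each mouse of the 8 groups (x axis, untrained in grey, trained in orange, retrieval in violet), with the mean and SD of 9 mice and dotted lines between the clock times. For Rbfox1 the RT30 mice (median 11.36) lie beside the FC24 mice (median 11.38), and for Nova1 the CC4 mice stand highest (median 9.80).

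Prpf38b, a protein of the spliceosome, had values from 7.60 to 7.87 (median 7.72) in CC30, from 7.58 to 7.82 (median 7.74) in FC24 and from 7.59 to 7.72 (median 7.62) in RT30. Only 2 of the 9 mice of RT30 lay below all of CC30. The difference of -0.10 did not pass (95% confidence interval -0.17 to -0.03, limma, adjusted p = 0.453), with adjusted p between 0.314 and 0.672 over the 14 other settings. RT30 against FC24 gave -0.06 (95% confidence interval -0.13 to 0.01), and FC30 against CC30 gave -0.05. In FC30 the genes at an unadjusted p under 0.05 were Sf3b5, a small subunit of the Sf3b complex, at 0.09 (limma, adjusted p = 0.642) and the dim Srpk3 at -0.09 (adjusted p = 0.651). In FC4 against CC4 they were the dim Mbnl3 at -0.15, Prpf31 at -0.08, Hnrnpdl at -0.08 and Srsf10 at 0.08 (limma, adjusted p = 0.922 for each). In RT30 against FC24 they were Prpf3 at -0.11 and Ptbp1 at 0.07 (limma, adjusted p = 0.644 and 0.750).

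The other neuronal regulators were not called after training or retrieval, and those given here differed by -0.08 to 0.05. In FC30 and RT30 against CC30, Nova1 differed by 0.02 and 0.00, and Nova2 by -0.02 and -0.02. Ptbp1, which represses neuronal exons outside neurons, differed by 0.03 and 0.02, and its neuronal relative Ptbp2 by 0.00 and 0.00. Mbnl1, of the muscleblind family that is sequestered in myotonic dystrophy, differed by -0.03 and -0.01, and Mbnl2 by -0.05 and -0.04. These intervals reach at most 0.14 from 0 among the 6 genes. The Celf genes, from Celf1 to Celf6, lay between -0.03 and 0.01 in FC30 and between -0.04 and 0.00 in RT30. Elavl1, the member found in all tissues, differed by 0.01 and -0.01, Elavl2 by -0.01 and 0.05, and Elavl4 by -0.08 and 0.02. Elavl4 was 0.10 higher in RT30 than in FC30 (95% confidence interval 0.01 to 0.19, limma, adjusted p = 1). Srpk1, the kinase of SR proteins, differed by 0.00 and 0.02.

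**Figure D5:**
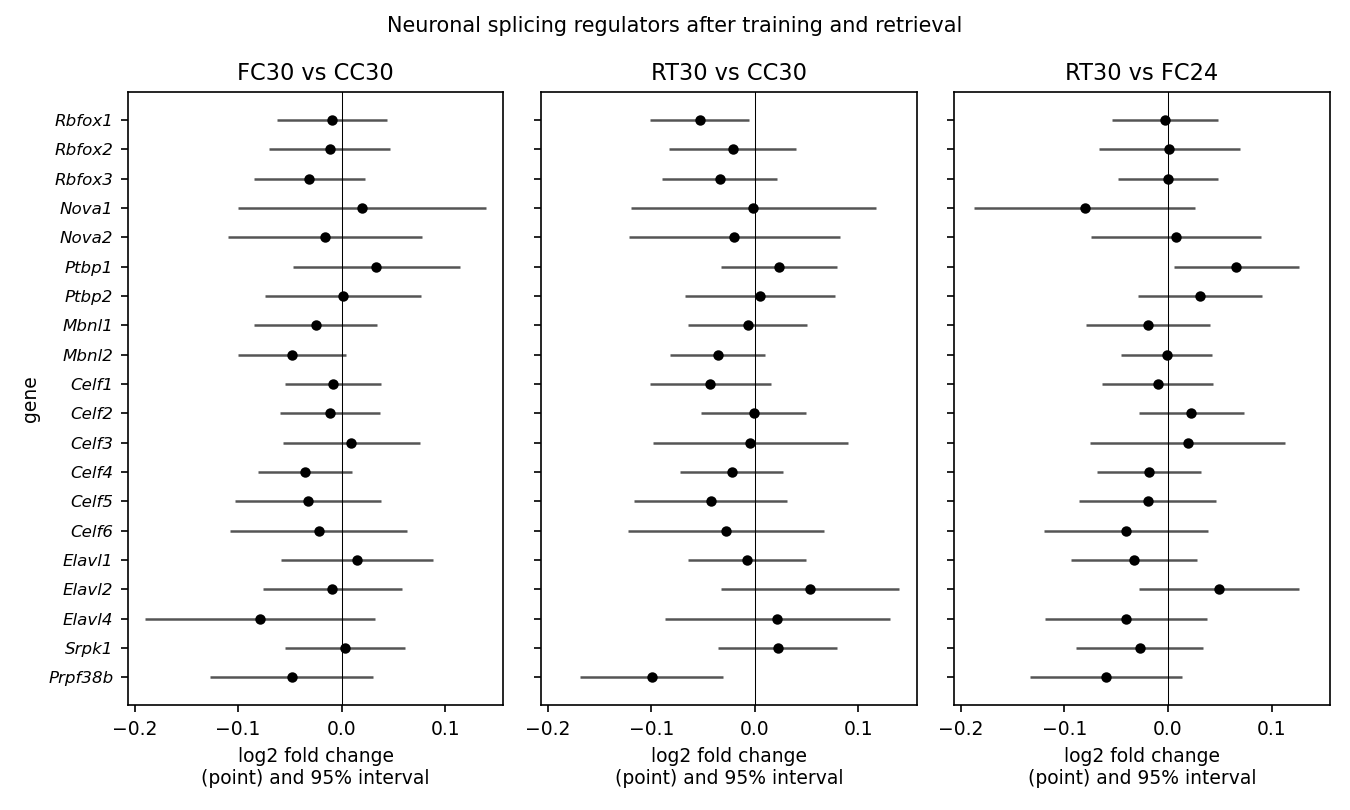
Log2 fold change (x axis, points) with its 95% confidence interval (lines) for 20 regulators (y axis) in FC30 against CC30, RT30 against CC30 and RT30 against FC24. Rbfox1 and Prpf38b have intervals that miss 0 in RT30 against CC30, at -0.05 and -0.10, and both include 0 in RT30 against FC24. In RT30 against FC24 the interval of Ptbp1 misses 0, at 0.07.

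A list of 84 other splicing genes, with no member in common with the set, showed calls in the same comparisons. It was chosen with earlier results of these data known. Of its genes 80 lay above the median probe set, and the shares of all probe sets were not matched for level. The shares below are therefore descriptions and no result about splicing genes. In CC12 against CC4, 8 rose and 1 fell (10.7%, against 5.01% of all probe sets), and in FC12 against FC4, 6 rose and 1 fell (8.33%, against 4.22%). In CC12 against CC30, 6 rose and 2 fell (9.52%, against 3.5%), and in FC12 against FC24, 2 rose (2.38%, against 3.19%). None was called in the 7 training and retrieval comparisons. Tra2a, an SR-like activator of exons, had a log2 fold change of 0.30 in CC12 against CC4 and 0.21 in FC12 against FC4 (limma, adjusted p = 0.00189 and 0.026). Clk1, a kinase that phosphorylates SR proteins in the nucleus, gave 0.30 and 0.21 (adjusted p = 0.000473 and 0.026), and its relative Clk4 gave 0.18 in CC12 against CC4 (adjusted p = 0.00339). Acin1 gave 0.21 and 0.18, and Sfpq, a speckle and paraspeckle protein, gave 0.20 and 0.18. Cwc22, which places the exon junction complex, fell by 0.23 in CC12 against CC4 (limma, adjusted p = 3.47e-05). In FC12 against FC4, Luc7l rose by 0.13 and Nsrp1 fell by 0.10 on the log2 scale. In CC12 against CC30 the largest changes were those of Clk1 (0.29), Clk4 (0.18), Cwc22 (-0.15), Acin1 (0.15), Tra2a (0.14) and Tardbp (-0.13), and in FC12 against FC24 those called were Clk1 (0.21) and Acin1 (0.13).

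Markers of cell types were set beside these results. Of the 11 neuron markers, 0 were called in any of the 12 comparisons, and their summed level on the log2 scale lay from 14.95 to 15.00 in CC4 and from 14.93 to 15.01 in CC12. Of the oligodendrocyte markers, 1 of 10 fell in CC12 against CC4, where the summed level lay from 12.35 to 12.60 in CC4 and from 12.13 to 12.57 in CC12. In the same comparison, which called 5.01% of all probe sets, 1 of 10 astrocyte markers rose, and 1 of 10 microglia and 1 of 9 endothelial markers fell. There 0 of 10 dentate granule, 0 of 9 pyramidal and 0 of 9 choroid plexus markers were called. Other comparisons called more markers of some types. CC12 against CC30 had 2 of 10 dentate granule and 2 of 10 oligodendrocyte markers lower (3.5% of all probe sets called). FC12 against FC24 had 3 of 10 dentate granule markers higher (3.19% of all). FC12 against FC4 had 1 of 9 endothelial and 1 of 10 dentate granule markers higher, and 2 and 1 lower (4.22% of all). Of the endothelial markers, 1 of 9 was also lower in RT30 against CC30, in RT30 against FC24 and in CC4 against CC30 (0.278%, 0.152% and 0.0731% of all). Choroid plexus markers varied most between mice, from 9.40 to 12.48 in CC4 and from 9.39 to 12.84 in CC12. The part of these cell types in the changes of Srsf5, Srsf10 and the other genes was not tested.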

How the data were processed

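Hippocampal RNA of 72 mice was hybridised to whole-transcript arrays, 1 array a mouse and 9 for each of 8 groups, which were assigned from the sample titles. Per the labels, the authors summarised the probes with RMA (background correction, quantile normalization and a log2 transform). The deposited values are these log2 signals for 35556 probe sets, written with 2 decimals, with 0 missing values and array medians between 5.82 and 5.88. Quantile normalization sets every array to 1 distribution, so a shift shared by most probe sets is not visible. The genome build behind the probe sets is not given in the sources used here.

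Gene symbols came from the array annotation (21218 probe sets with 1 symbol, 1881 with several and 12457 with none). As the study's methods describe, PC1 of a singular value decomposition of the probe-set-centred values was subtracted. It held 17.4% of the variance, less than the study gives for its PC1, so the component removed here may not be the same. Comparisons were run in pairs of groups, 18 arrays each, with limma 3.58.1 (R 4.3.3), two-sided, with Benjamini-Hochberg adjustment across all probe sets and 0.1 as the threshold. Differences between effects were tested as 3 interaction terms. The fit was tested on simulated data. Python 3.11.15 with numpy 2.4.6, scipy 1.17.1, pandas 2.3.3 and matplotlib 3.10.9 did the rest. The number of arrays limits the precision. A percent change is 2 to the power of the log2 fold change, less 1, given in percent.

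The members and lists were chosen with earlier results of these data known. Genes were named if called in a comparison, or if they were Rbfox1 to Rbfox3, Nova1, Nova2, Ptbp1, Ptbp2, Srpk1, Prpf38b, Mbnl1, Mbnl2, Celf1 to Celf6, Elavl1, Elavl2 or Elavl4. Other members given with values, such as Prpf8, Prpf3, Sf3b5 and Hnrnpk, were named after their values were seen. Of the other splicing genes, at most 6 called in a comparison were named. Of the genes on the lists, 13 were not matched. Promoter windows came from RefSeq (GRCm38.p6). The analysis was repeated under 12 planned settings, and under 2 that were chosen after seeing the data and leave out the 6 arrays that stood apart.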

Additional observations from a re-analysis of the deposited data

Results flagged for a closer look

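Within the groups of 9 mice, 12 splicing genes (the 10 called in a comparison, Rbfox1 and Prpf38b) were examined for a mouse far from the other 8, in 96 groups of values. Of these groups 3 were marked, where chance marks about 1 in 20. Hnrnpdl in FC30 had replicate 4 at 9.7847, with the next mouse at 9.6610, and this array is one of those that stood apart in the component scores. Srsf10 in CC30 had replicate 1 at 9.6802, with the next mouse at 9.7793, and lay below the rest of the control group used for CC12 against CC30. Srsf4 in CC12 had replicate 6 at 9.0100, with the next mouse at 8.8993.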

How the results depend on the processing

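In the 7 training and retrieval comparisons and the 3 interactions, 0 of the 84 genes were called in the main setting and in all 14 others. Srsf5 and Srsf10 were called in CC12 against CC4 in all 14 (adjusted p from 5.35e-05 to 0.07 and from 1.02e-06 to 0.029). Counts between clock times moved. CC12 against CC30 (2 genes) called 4 with all groups in one fit, 1 with the mean over a gene's probe sets, and 0 with local false discovery rates, with the replicate block, without the arrays that stood apart, and without them with PC1 found again. CC12 against CC4 (6) called 12 with the first 2 components removed, 14 with one fit, 10 with the equal variance test, 10 with an intensity trend and robust estimation, and 2 with local false discovery rates. FC12 against FC4 (5) called 9 with the equal variance test, 8 without dim probe sets, 8 with only 1-symbol probe sets, 0 with local false discovery rates, 1 with the replicate block and 1 without the arrays apart with PC1 found again. FC12 against FC24 (4) called 7 with the equal variance test, 7 with the trend, 0 with local false discovery rates, 1 with the replicate block and 0 without the arrays apart with PC1 found again. The replicate block left 5 genes in CC12 against CC4. The correlation of mice of the same number was over 0.1 in 0 to 3 of 9 pairs of a comparison, with 3 in FC4 against CC4 (highest r 0.376) and in RT30 against FC24 and 1 in FC12 against FC4, and at most 4 of 9 matched their own number best (FC4 against CC4). The replicate 2 arrays of CC12 and FC12 both stood apart on PC1 (48.8 and 61.1). The numbers were not taken to pair the mice. The cause of these moves was not tested.

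Signs turned for 9 values near 0, none of them called. In FC30 against CC30, Nova1 went to -0.0142 and Celf1 to 0.0232 with the mean over probe sets, Ptbp2 to -0.0011 with no component removed, Srpk1 to -0.0055 and Elavl1 to -0.0086 without the arrays apart with PC1 found again, and Elavl2 to 0.0096 without the arrays apart. In RT30 against CC30, Nova1 went to 0.00083 and Elavl1 to 0.00086 with the first 2 components removed, and Celf2 to 0.0074 with array weights. Log2 values with 9 mice a group do not resolve changes much under 0.1 for most of these genes.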
